A study of Mus musculus with 16 samples.

Results

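The 9 genes described here handle long-chain fatty acids between the cell surface and the mitochondrion: Cd36, Fabp4, Fabp5, Lpl, Acsl1, Acsl3, Acsl4, Acsl5 and Cpt1a. They were chosen by gene symbol for these roles, and all 9 were found among the 19540 genes of the deposited table. All 9 also passed the filter on low values that left 14319 genes for testing. Their RNA was measured in regulatory T cells (Treg) and conventional T cells (Tconv) that had been sorted from mouse visceral adipose tissue (VAT). The study compared mice in which Treg lack Hpgd, the enzyme that inactivates prostaglandin E2, with wild type animals. There were 5 libraries of Tconv KO and 4 of Tconv WT, and 4 of Treg KO and 3 of Treg WT, all from mice of the C57BL/6JRcc strain aged 12 weeks. KO animals carry a floxed Hpgd (Hpgd fl) and Foxp3-YFP-Cre, in which the Foxp3 locus drives Cre, so Tconv KO are cells beside Hpgd-deficient Treg. The line label was the same for every library, so WT and KO rest on the sample titles, and the labels do not say whether WT mice carry either allele. Libraries were not tied to animals by the labels, so p-values measure the spread between these libraries, which may be technical.

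Long-chain fatty acids reach a cell partly from triglycerides that lipoprotein lipase (Lpl) cleaves outside it, and the scavenger receptor Cd36 helps their entry. Inside the cell, the binding proteins Fabp4 and Fabp5 carry them, long-chain acyl-CoA synthetases (the Acsl enzymes) activate them to acyl-CoA, and Cpt1a makes the acylcarnitine that enters mitochondria for beta-oxidation. Treg of visceral fat are known for Pparg, the nuclear receptor that adipocytes use too, and Cd36 and Fabp4 are textbook targets of that receptor.

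Values are normalised read counts plus 1, so a value of 1 means no reads. The reads behind a library ran from 3.39 to 9.26 M in 15 libraries and reached 56.7 M in Tconv KO 3, and 3 reads corresponded to values from 1.38 to 7.09. Foxp3, the factor that defines Treg, read 279 to 616 in Treg and 1 to 39.3 in Tconv libraries. Hpgd itself read 73.1 and 56.0 in Treg WT 1 and 2 and 1 to 3.41 in Treg KO, but only 4.31 (3 reads) in the library labelled Treg WT 3, which goes against its label. Tconv WT 1, Tconv WT 3 and Tconv KO 3 stood apart from the other Tconv by Il5, a type 2 cytokine, at 600, 426 and 940.4, against 1 to 52.4 in the rest. Among Treg, Treg WT 2 had the interleukin 33 receptor Il1rl1 at 1725, against 10742 to 14889 in the other 6. Tconv WT 1 also held neutrophil and mast cell transcripts (a summed level of 14462, against 0 to 102 elsewhere), and Tconv WT 3 held red cell transcripts. In bulk samples, fewer cells of a type and less RNA per cell cannot be told apart.

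Cpt1a, Acsl5, Fabp5 and Acsl4 were the abundant members, and Cd36, Fabp4 and Acsl3 lay near the detection floor in many libraries. Per kb of merged annotated exons, the level averaged over 16 libraries was 165 for Cpt1a, 139 for Acsl5, 69.5 for Fabp5 and 58.9 for Acsl4. It was 15.7 for Acsl1, 9.46 for Lpl, 4.78 for Acsl3, 2.84 for Fabp4 and 1.88 for Cd36. The annotated length of Fabp5 includes a transcript with retained introns. Taken per kb of the principal transcript instead, Fabp5 (251) lay just below Cpt1a (293) and above Acsl5 (159), and Fabp4 came to 14.2, above Acsl3 at 5.27. Between libraries the spread was narrowest for Cpt1a and Acsl5, whose highest library was 2.24 and 2.32 times the lowest. That ratio was 4.36 for Acsl4, 4.61 for Lpl, 5.15 for Acsl1 and 6.93 for Fabp5. Fabp4 had no reads in 8 of 16 libraries, Cd36 none in 5 and Acsl3 none in 2.

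**Figure D1:**
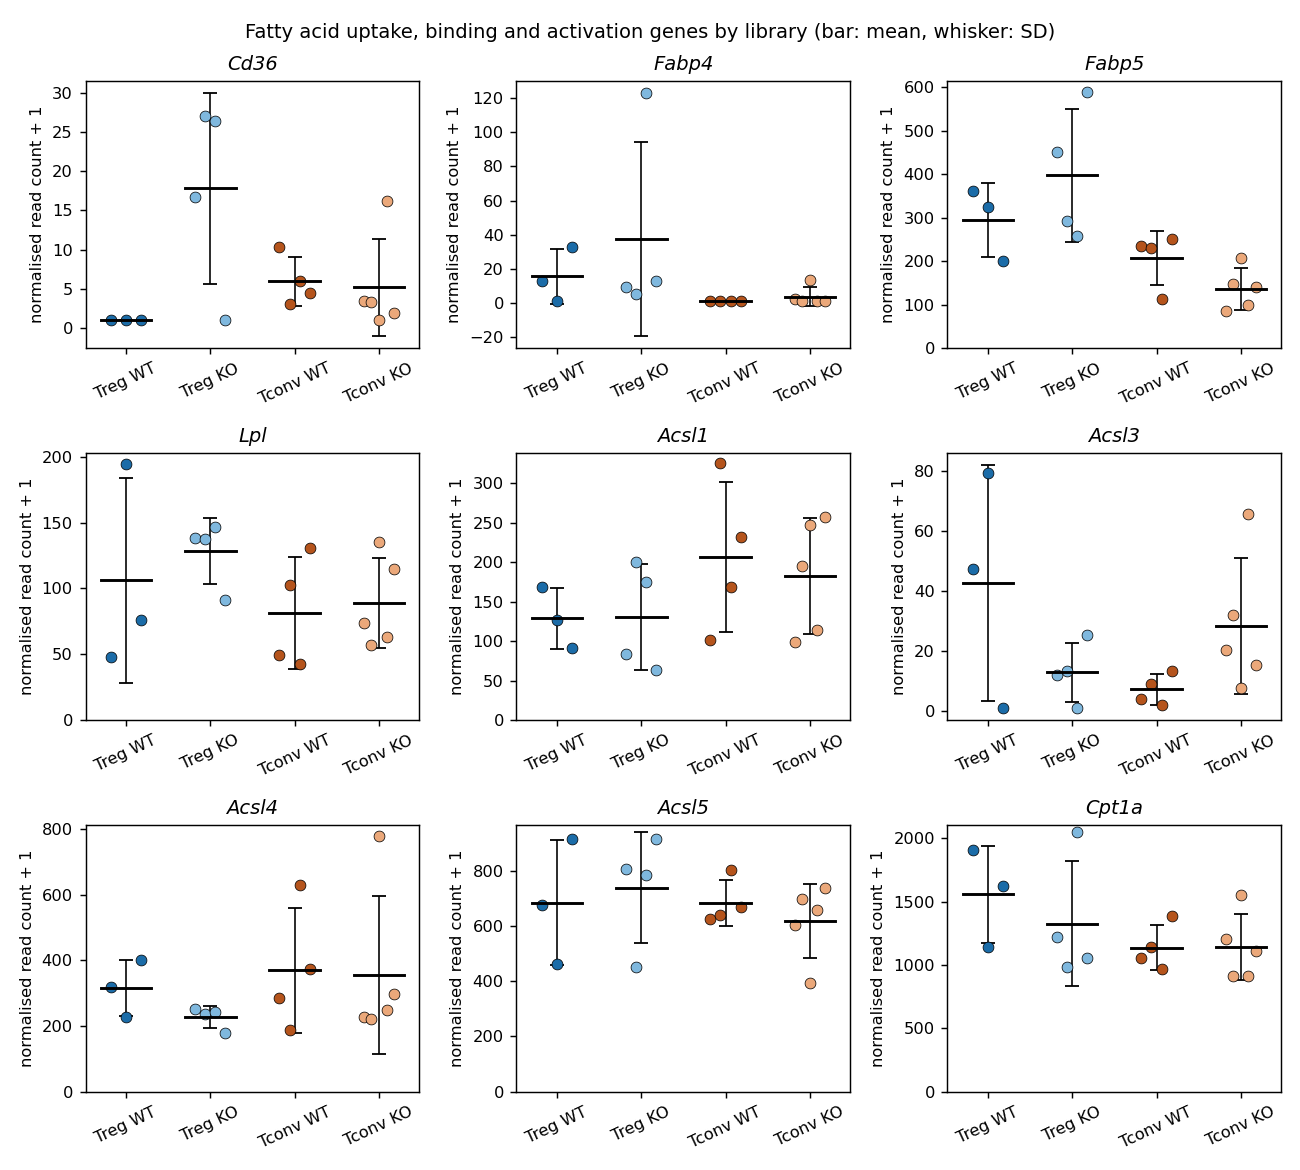
Normalised read count plus 1 of each of the 9 genes (y axis, linear, own scale per panel) in every library of the 4 groups (x axis); points are libraries, the thick bar is the group mean and the whisker 1 SD. Fabp5 is the panel in which the Treg KO libraries (259 to 589) all lie above the Tconv KO libraries (84.9 to 207), while Cd36, Fabp4 and Acsl3 hold libraries at 1, which have no reads.

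The deletion of Hpgd changed none of the 9 genes past the test, in Treg or in Tconv, and the effect of the deletion differed between the cell types for none of them. Between cell types, 1 of the 9 passed: Fabp5 was higher in Treg KO than in Tconv KO. In limma with Benjamini-Hochberg adjustment over all genes tested, 0 of 9 passed in Treg KO against Treg WT, where 0.021% of all genes were called (3 of 14319). In Tconv KO against Tconv WT the members called were 0 of 9, against 0% of all genes, and for the difference of the deletion effects also 0 of 9 against 0%. At an unadjusted p under 0.05 stood 781 (5.45%) and 748 (5.22%) of all genes in these last 2 comparisons, with 0 and 1 of the 9 among them. Treg WT against Tconv WT gave 0 of 9 members, where 4.18% of all genes were called, and Treg KO against Tconv KO gave 1 of 9, where 6.81% were. With 9 genes, 1 call is not read as a share above that background. The median log2 difference of the 9 genes was 0.12, −0.11, 0.21, 0.29 and 0.24 in these 5 comparisons in turn, beside 0.08, 0.02, 0.06, −0.00 and 0.04 over all genes. These comparisons share groups, so their values are not independent of each other.

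**Figure D2:**
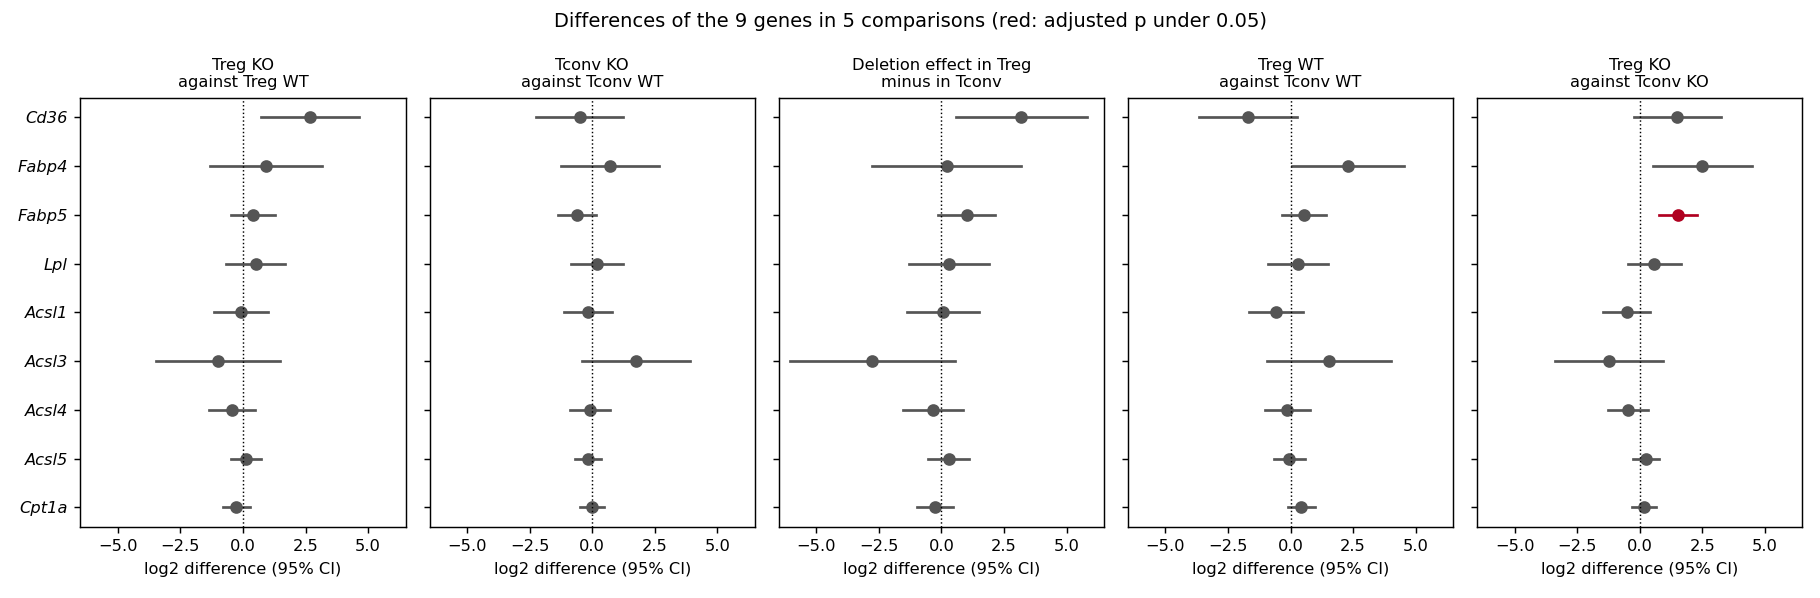
Log2 difference of each gene (x axis, on the log2 scale of the value plus 1, with 95% intervals) in the 5 comparisons, 1 panel each; red marks an adjusted p under 0.05. Fabp5 in Treg KO against Tconv KO (1.53) is the only red point, and the intervals of Cd36, Fabp4 and Acsl3 are several times wider than those of Cpt1a and Acsl5.

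Cd36, the fatty acid translocase of the cell surface, had no reads in any Treg WT library and reads in 3 of the 4 Treg KO libraries. It read 1, 1 and 1 in Treg WT, and 16.7, 27.1, 26.5 and 1 in Treg KO, from 13, 17, 18 and 0 reads. Treg KO 4 thus overlapped the WT group, and the other 3 lay above all Treg WT libraries. They were not set apart from Tconv. Treg KO 1 (16.7, 13 reads) and Tconv KO 4 (16.2, 19 reads) differed by less than the value of 1 read in Treg KO 1 (1.21). The group mean in Treg KO was 17.8 ± 12.2 (SD, n = 4), 4.58 times the 3.89 to which 3 reads correspond in Treg WT. That ratio leaves out the spread between the Treg KO libraries. The fitted log2 difference, which for a gene without reads depends on the pseudocount, was 2.68 ± 0.94 (SE, 95% interval 0.72 to 4.65), with an adjusted p of 0.733. Of the 9 genes it was the only one with an unadjusted p under 0.05 in this comparison, as were 6.22% of all genes.

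In Tconv, Cd36 was detected at low read numbers in both genotypes. Tconv WT read 10.3, 3.03, 6.03 and 4.38, from 9, 1, 5 and 3 reads, and Tconv KO read 3.43, 3.34, 1, 16.2 and 1.89, from 2, 3, 0, 19 and 1. These groups overlapped widely, with a log2 difference for KO minus WT of −0.51 (95% interval −2.2 to 1.2, adjusted p = 0.984). The deletion effect on Cd36 was larger in Treg than in Tconv by 3.19 on the log2 scale (95% interval 0.58 to 5.80), which did not pass after adjustment in limma (adjusted p = 0.928). All 3 Treg WT libraries lay below all 4 Tconv WT libraries, a separation in that direction found for 6.1% of all genes. Treg WT, taken at its floor of 3 reads, was 1.53-fold lower by the mean, and the adjusted p was 0.399. That ratio is not a minimum, because Tconv WT 2 and Tconv WT 4, with 1 and 3 reads, lay at or under their own floors. Treg KO against Tconv KO gave a log2 difference of 1.51 (95% interval −0.22 to 3.23, adjusted p = 0.354).

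Macrophages, adipocytes and endothelial cells of fat also express Cd36, so the levels of their markers stand beside these values. Csf1r, a receptor that marks macrophages, read 2.83, 1 and 3.21 in Treg WT and 73.3, 60.9, 16.6 and 1 in Treg KO. Treg KO 4 had reads of neither Cd36 nor Csf1r. Among Tconv WT, library 1 had the highest value of both genes, Csf1r at 132 and Cd36 at 10.3. Tconv KO 4 was also the highest of its group for both, with Cd36 at 16.2 but Csf1r at only 1.8 (1 read). The sum of 11 macrophage markers was 3.49 to 60.2 in Treg WT, 25.5 to 288 in Treg KO, 18.3 to 1097 in Tconv WT and 52.0 to 224 in Tconv KO. Of the 11 markers, 3 had no reads in Treg WT, 0 in Treg KO and 1 in each Tconv group. Lyz2, a lysozyme of myeloid cells, had no reads in Treg WT and read 39.6, 2.54, 1 and 31.2 in Treg KO. It was thus at or near 0 reads in the 2 libraries with the most Cd36 and present in Treg KO 4, which had none, and it was highest in Tconv WT 1, at 833. Cd68, another macrophage marker, averaged 14.4 in Treg WT and 8.92 in Treg KO, the opposite direction to Csf1r. Its means were 48.2 in Tconv WT and 80.1 in Tconv KO. The sum of 8 adipocyte markers was 22.1 to 82.0 in Treg WT and 41.1 to 112 in Treg KO. Adipoq, which encodes adiponectin, had reads in 3 of 16 libraries (Treg WT 2, Treg KO 1 and Tconv WT 2). The endothelial sum over 10 markers was 202 to 328 in Treg WT and 218 to 547 in Treg KO, most of it Pecam1, which T cells can express too. It was 253 to 620 in Tconv WT and 487 to 1251 in Tconv KO, where Cd36 was lower than in Treg KO by the mean. The part of such cells in the Cd36 difference was not tested.

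The bases before an annotated start site of Cd36 are shown because Cd36 had the largest fitted difference by genotype of the 9 genes. Cd36 is also a textbook target of Pparg, which these Treg expressed. The window is chr5:17835897-17836146 on the minus strand of GRCm38.p6 (RefSeq), the 250 bases upstream of the start site, read 5′ to 3′ along the gene. Capitals mark matches to a nuclear receptor half-site (AGGTCA, here as TGACCT on the other strand, starting at −228), a CCAAT box (at −195) and 2 GC boxes (GGGCGG, at −109 and −93).
Cd36 upstream: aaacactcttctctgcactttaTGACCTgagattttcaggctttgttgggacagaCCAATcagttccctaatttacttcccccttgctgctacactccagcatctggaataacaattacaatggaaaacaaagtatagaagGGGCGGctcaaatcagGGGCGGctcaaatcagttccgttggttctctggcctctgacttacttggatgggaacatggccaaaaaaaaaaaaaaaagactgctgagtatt
Among 32851 windows of this length before annotated start sites, 14% hold the half-site on either strand, 33.8% a CCAAT box and 32.7% a GC box. The PPAR response element, searched as an exact pattern of 13 bases, repeats that half-site after a gap of 1 base. It occurred in 0 of the 7 windows of the 6 members with a window, and in 0.0335% of all windows. At so low a rate, its absence from 7 windows tells nothing about these genes. A match describes letters only and says nothing of binding. Cd36 lies at chr5:17781690-17888801 on the minus strand (GENCODE M21, GRCm38) with 17 merged exons. The window shown lies inside that span, so it does not precede the 5′ end of the annotated gene. Pparg read 514, 301 and 405 in Treg WT and 455, 269.9, 494 and 610.1 in Treg KO, in groups that overlapped. The highest Pparg values, in Treg KO 4 and Treg WT 1, were in libraries without Cd36 reads.

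Lpl, the secreted lipase that releases fatty acids from lipoprotein triglycerides, was detected in every library and did not differ between groups beyond their spread. Treg WT read 47.6, 195 and 76.0, and Treg KO read 138, 138, 147 and 91.5. Tconv WT read 49.6, 102, 42.3 and 130.5, and Tconv KO read 74.0, 57.1, 135, 63.2 and 115. Every pair of groups overlapped. Treg WT 2 held the highest value of all 16 libraries, and 3 of 4 Treg KO libraries lay within 10 units of each other. Log2 differences were 0.50 in Treg KO against Treg WT (95% interval −0.69 to 1.69, adjusted p = 0.926) and 0.20 in Tconv KO against Tconv WT (−0.84 to 1.24, adjusted p = 0.996). Treg against Tconv gave 0.29 in WT and 0.59 in KO, with adjusted p of 0.873 and 0.609. Lpl lies at chr8:68880491-68907448 on the plus strand.

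Fabp5, the epidermal type fatty acid binding protein, was the one member with a called difference, and it had a higher mean in Treg than in Tconv in both genotypes. Treg KO libraries read 451, 291, 259 and 589, and Tconv KO libraries read 84.9, 148, 207, 98.3 and 139.6. Each Treg KO library lay above each Tconv KO library, as for 6% of all genes. Means were 397 ± 153 (SD, n = 4) and 136 ± 48.2 (SD, n = 5), a ratio of 2.93. The log2 difference was 1.53 ± 0.36 (SE, 95% interval 0.78 to 2.29), with an adjusted p of 0.0115 in limma. Without Treg KO 4, the highest library, it was 1.32 with an adjusted p of 0.0636, the single one of 26 alternatives in which the call was lost. Without the 3 Tconv libraries that stood apart, it was 1.70 with an adjusted p of 0.00479.

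Among WT animals Fabp5 read 362, 326 and 199 in Treg and 234, 230.4, 114 and 251 in Tconv, so that the library labelled Treg WT 3 lay below 3 of the 4 Tconv WT libraries. The means were 296 ± 85.1 (SD, n = 3) and 207 ± 62.9 (SD, n = 4), with a log2 difference of 0.53 (95% interval −0.33 to 1.39, adjusted p = 0.60). Without the library labelled Treg WT 3 it was 0.79, with an adjusted p of 0.488. In order, the group means of Fabp5 ran from Tconv KO through Tconv WT and Treg WT to Treg KO, and each neighbouring pair in that order overlapped. Deletion gave a log2 difference of 0.39 in Treg (95% interval −0.47 to 1.26, adjusted p = 0.924) and −0.61 in Tconv (−1.37 to 0.15, adjusted p = 0.932). The difference between these effects was 1.00 (95% interval −0.15 to 2.16, adjusted p = 0.928), so a different cell type contrast in KO than in WT was not shown.

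The 3 genes whose log2 values lay nearest to those of Fabp5 over the 16 libraries, among 9140 compared, were Sh3bgrl3, Emp3 and S100a10. Their root mean square distances, after each gene was centred on its mean, were 0.43, 0.44 and 0.45 on the log2 scale. All 3 had higher means in Treg than in Tconv in both genotypes, as Fabp5 did. They were chosen for likeness to Fabp5 over these same libraries, so this shared direction is no separate result. S100a10, a small calcium binding family member, averaged 10518 and 11987 in Treg WT and Treg KO and 5625 and 5449 in the Tconv groups.

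Fabp4, the adipocyte type binding protein, was detected mainly in Treg libraries. Treg WT read 12.9, 1 and 33.0 (13, 0 and 29 reads), and Treg KO read 9.44, 5.61, 123 and 12.7 (7, 3, 86 and 12 reads). Tconv WT read 1 in all 4 libraries, with no reads, and Tconv KO read 2.22, 1, 13.5, 1 and 1 (1, 0, 99, 0 and 0 reads). Reads were thus present in 6 of 7 Treg and 2 of 9 Tconv libraries. Of those 2, Tconv KO 3 was the most deeply sequenced, but its scaled value of 13.5 was near those of Treg WT 1 (12.9) and Treg KO 4 (12.7). Pparg read 398 in Tconv KO 3. It read 316 and 485 in Tconv WT 1 and Tconv WT 3, which had no Fabp4 reads. Treg WT 2, with no reads, overlapped the Tconv WT libraries, and the KO groups overlapped too. The Treg WT mean of 15.6 ± 16.2 (SD, n = 3) was 3.19 times the Tconv WT floor of 3 reads. That ratio leaves out the spread between the Treg WT libraries. The fitted log2 difference of Treg WT against Tconv WT was 2.29 (95% interval 0.05 to 4.53, adjusted p = 0.292). Leaving out 1 library at a time, it ran from 1.40 to 3.44, with adjusted p from 0.0932 to 0.674. The lowest value, 1.40 (adjusted p = 0.674), was without the library labelled Treg WT 3. In KO, the means of 37.6 ± 56.8 (SD, n = 4) and 3.75 ± 5.50 (SD, n = 5) gave a log2 difference of 2.50 ± 0.94 (SE, 95% interval 0.53 to 4.47) and an adjusted p of 0.135. Deletion gave 0.91 in Treg (95% interval −1.33 to 3.16, adjusted p = 0.930).

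Treg KO 3 carried the highest Fabp4 value, 123, which sets the mean of its group. That library had the lowest adipocyte marker sum of the Treg KO group (41.1), the lowest macrophage sum (25.5) and no Adipoq reads, as had 3 of the 4 Treg KO libraries. Its endothelial sum was 292, and it had reads of 7 of the 10 endothelial markers, more than any other Treg library. Adipocyte sums were 10.1 to 33.2 in Tconv WT and 13.2 to 24.3 in Tconv KO, below the Treg KO range of 41.1 to 112. Plin1, a lipid droplet protein, averaged 17.4 and 17.1 in Treg WT and Treg KO and 9.31 and 11.9 in Tconv WT and Tconv KO. The part of adipocyte, macrophage or endothelial RNA in the Fabp4 levels was not tested.

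Both binding protein genes lie on chromosome 3, Fabp5 at chr3:10012548-10016607 on the plus strand and Fabp4 at chr3:10204088-10208576 on the minus strand, and each has 4 coding exons. The first 300 bases of their coding sequences are shown, 5′ to 3′ from the start codon (GENCODE M21, GRCm38), because they show whether short reads can be assigned to one gene. Capitals mark bases inside a stretch of 31 bases that another annotated gene also holds.
Fabp4 coding start: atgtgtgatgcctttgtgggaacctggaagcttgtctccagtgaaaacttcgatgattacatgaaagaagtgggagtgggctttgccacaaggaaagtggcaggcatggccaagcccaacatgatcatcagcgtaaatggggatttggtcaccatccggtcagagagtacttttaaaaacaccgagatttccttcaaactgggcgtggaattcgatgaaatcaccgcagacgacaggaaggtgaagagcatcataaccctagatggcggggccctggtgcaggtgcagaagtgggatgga
Fabp5 coding start: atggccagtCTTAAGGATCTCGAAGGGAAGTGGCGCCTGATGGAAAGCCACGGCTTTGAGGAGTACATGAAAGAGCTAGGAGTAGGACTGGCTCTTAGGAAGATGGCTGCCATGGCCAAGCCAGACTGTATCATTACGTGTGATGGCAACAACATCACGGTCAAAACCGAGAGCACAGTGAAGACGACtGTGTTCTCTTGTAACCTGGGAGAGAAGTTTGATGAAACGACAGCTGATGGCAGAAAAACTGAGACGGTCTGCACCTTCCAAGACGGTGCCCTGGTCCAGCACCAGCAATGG
Over their whole length, the aligned coding sequences were 59.6% identical over 408 columns, with no identical run over 12 bases, and no stretch of 31 bases was shared between the transcripts. The principal transcript of Fabp4 shared no such stretch with any other gene. In that of Fabp5, 398 of 408 coding bases (97.5%) lay in shared stretches, as did 317 of the 957 stretches of its whole transcript (33.1%). The sharing genes were 5 processed pseudogenes: Fabp5l2, Gm13998, Gm14328, Gm6100 and Gm6166. How the counting treated such reads is not given in the sources used here, so the Fabp5 level is uncertain to that extent.

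Of the 4 long-chain acyl-CoA synthetases, Acsl5 had the largest mean share in every group, and none of them passed the test in any comparison. Per kb of merged exons, Acsl5 made up 62.8% ± 6.33 (SD, n = 3) of the summed level of these 4 genes in Treg WT and 71.6% ± 9.42 (n = 4) in Treg KO. It made up 62.0% ± 5.51 (n = 4) in Tconv WT and 59.9% ± 15.5 (n = 5) in Tconv KO. Acsl4 came next with group means of 20.7% to 29.2%, then Acsl1 with 5.84% to 8.88% and Acsl3 with 0.655% to 5.19%. Per kb of the principal transcript, a length chosen after seeing the data, Acsl1 had group means of 13% to 18.7%, Acsl4 17.3% to 24.4% and Acsl5 55.9% to 67.7%. The order of the first pair was turned in 1 of 16 libraries: in Tconv KO 3, Acsl4 made up 57.6% and Acsl5 32.3% per kb of merged exons.

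**Figure D3:**
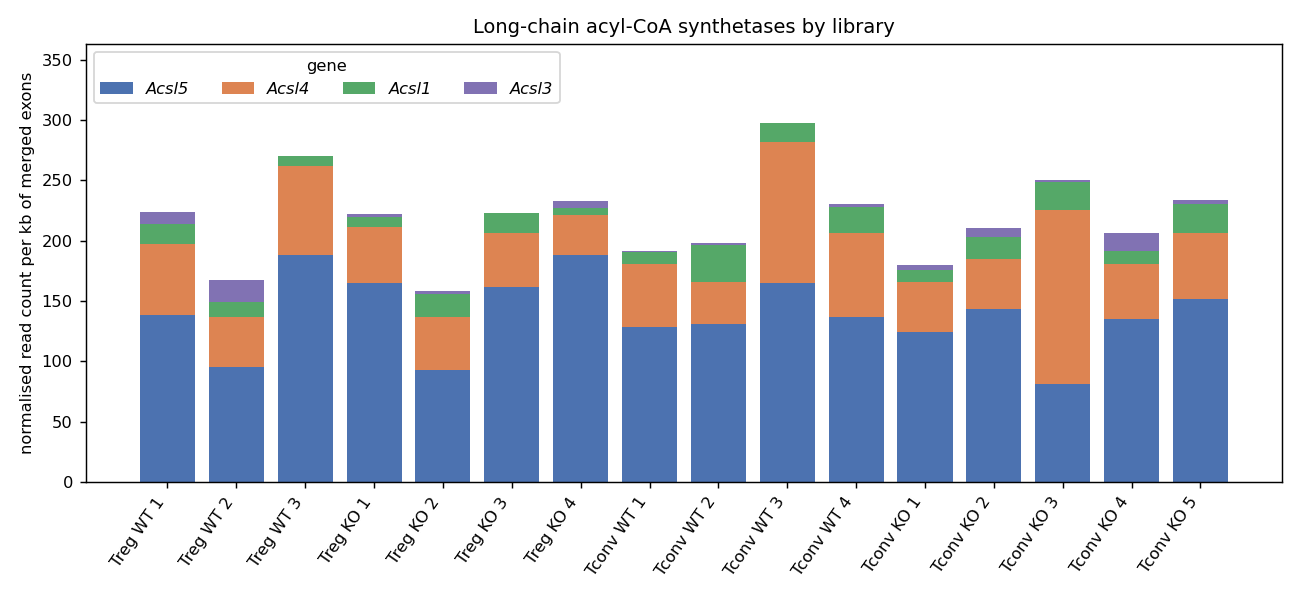
Normalised read count per kb of merged exons (y axis, from 0) of the 4 Acsl genes, stacked by library (x axis) and coloured by gene. Acsl5 is the largest segment in 15 libraries, and in Tconv KO 3 the Acsl4 segment is larger (57.6% of the stack against 32.3%).

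Acsl5, a synthetase of the mitochondrial outer membrane and endoplasmic reticulum, read 676, 463 and 914 in Treg WT and 805, 451, 785 and 916 in Treg KO. Tconv WT read 624, 638, 804 and 667, and Tconv KO read 604, 698, 394, 657 and 737. The low library, Tconv KO 3, is the one with high Acsl4, and all groups overlapped. Its 4 differences between groups lay between −0.17 and 0.24 on the log2 scale, with adjusted p of 0.698 or more. The 95% interval of the deletion effect in Treg was −0.49 to 0.72, and in Tconv −0.70 to 0.36. Acsl5 lies at chr19:55251938-55297720 on the plus strand, and an exon overlaps one of Zdhhc6 on the other strand, whose reads SMART-seq2, which does not mark strand, cannot tell apart.

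Acsl4, which prefers arachidonic acid, the precursor of prostaglandins, read 319, 228 and 400.2 in Treg WT and 252, 238, 243 and 179 in Treg KO. The Treg KO group lay lower on average (228 ± 33.1, n = 4, against 316 ± 86.2, n = 3, means ± SD) but overlapped the WT group. The log2 difference was −0.44 (95% interval −1.35 to 0.47, adjusted p = 0.916). In Tconv, the libraries read 286, 188, 630 and 374 in WT and 228, 223, 780.4, 248 and 298 in KO, with a log2 difference of −0.11 (95% interval −0.91 to 0.70, adjusted p = 0.996). The high values were those of Tconv WT 3 and Tconv KO 3. Acsl4 lies at chrX:142317993-142390535 on the minus strand.

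Both libraries with high Acsl4 were among the 3 Tconv libraries with high Il5, Pparg and Il1rl1, the receptor of interleukin 33 that fat Treg and type 2 lymphocytes carry. Tconv WT 3 read 485 for Pparg, 426 for Il5 and 1746 for Il1rl1, and Tconv KO 3 read 398, 940.4 and 2548. The third such library, Tconv WT 1, read 316, 600 and 1566 but had Acsl4 at 286, within the range of the other Tconv libraries (188 to 374). In those others, Pparg was 1 to 36.3 and Il1rl1 25.4 to 201. Treg libraries had Pparg at 269.9 to 610.1 with Acsl4 at 179 to 400.2, a range that overlapped that of the other Tconv. The part of depth, of red cell transcripts and of type 2 cells in these Acsl4 values was not tested.

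**Figure D4:**
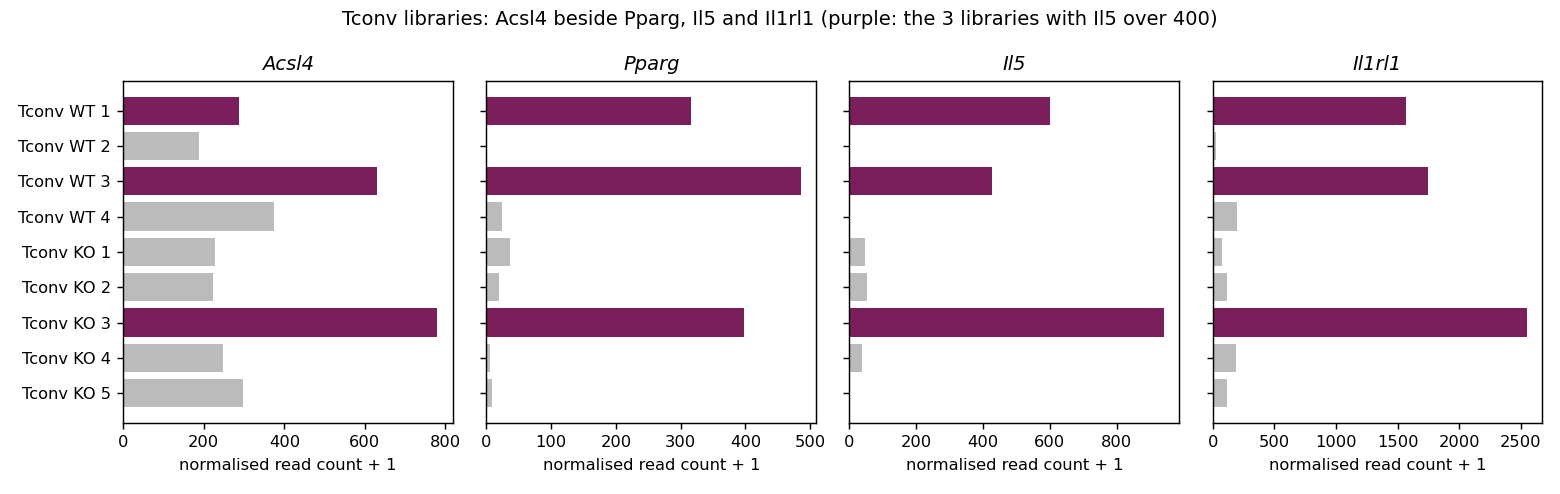
Normalised read count plus 1 (x axes, linear, from 0) of Acsl4, Pparg, Il5 and Il1rl1 in the 9 Tconv libraries (rows); purple marks the 3 libraries with Il5 over 400. Tconv WT 3 and Tconv KO 3 are high in all 4 panels, and Tconv WT 1 is high in all but Acsl4 (286).

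Acsl1, the synthetase best known from adipocytes, liver and heart, had a lower mean in Treg than in Tconv without passing the test. Treg WT read 169, 127 and 91.4, Treg KO 84.2, 201, 175 and 63.3, Tconv WT 101.3, 326, 168 and 232, and Tconv KO 98.3, 196, 248, 113 and 257. The groups overlapped in every comparison, with log2 differences for Treg minus Tconv of −0.59 in WT and −0.53 in KO (adjusted p = 0.652 and 0.614). Deletion gave −0.09 in Treg and −0.16 in Tconv, both with intervals that held 0. Acsl1 lies at chr8:46471037-46536051 on the plus strand, and an exon overlaps one of the gene model Gm45244 on the other strand, whose reads cannot be told apart.

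Acsl3, a synthetase of the endoplasmic reticulum and lipid droplets, varied from no reads to 79.5 across libraries. Treg WT read 47.6, 79.5 and 1, from 51, 90 and 0 reads, so the library labelled Treg WT 3 lacked a gene that the other 2 held at 50 reads or more. Treg KO read 11.8, 13.3, 1 and 25.3, Tconv WT read 4.10, 9.12, 2.01 and 13.4, and Tconv KO read 20.5, 32.2, 7.72, 65.6 and 15.2. Tconv KO against Tconv WT gave a log2 difference of 1.75 (95% interval −0.41 to 3.92, adjusted p = 0.932), and 4 of 5 KO libraries lay above all 4 WT libraries. Treg KO against Treg WT gave −1.0 (95% interval −3.47 to 1.47, adjusted p = 0.930). Without the library labelled Treg WT 3 that value was −2.66, with an adjusted p of 0.744. Acsl3 lies at chr1:78657825-78707743 on the plus strand and shares exon sequence with Utp14b on the same strand, so reads there are uncertain.

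Cpt1a, which commits acyl-CoA to mitochondrial import, was the most abundant member and varied little. Treg WT read 1907, 1145 and 1620, Treg KO 1220, 981, 2047 and 1056, Tconv WT 1054, 1144, 970.2 and 1383, and Tconv KO 1204, 917, 1550.2, 915 and 1112. Every pair of groups overlapped. Treg WT against Tconv WT gave a ratio of means of 1.37 and a log2 difference of 0.43 (95% interval −0.12 to 0.98, adjusted p = 0.452), and in KO the log2 difference was 0.18 (95% interval −0.30 to 0.67, adjusted p = 0.764). The deletion effect was −0.26 in Treg (95% interval −0.82 to 0.29) and −0.01 in Tconv (−0.50 to 0.47), with adjusted p of 0.918 and 0.999. Cpt1a lies at chr19:3322334-3385733 on the plus strand.

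The wider pathway was read from a list of 91 other fatty acid genes, of which 85 were in the table and 76 passed the filter. Hpgd deletion changed none of the 76 past the test, either in Treg or in Tconv, nor did the difference of the effects. In Treg against Tconv, 2 were higher in WT and 5 in KO, and none was lower. These shares, 2 of 76 and 5 of 76, stood beside 2.2% and 4.16% of all genes called higher in the same comparisons. All 76 genes had a median log2 difference of 0.09 in WT and 0.18 in KO.

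Acot7 and Acot9 hydrolyse acyl-CoA back to free fatty acid, and Acsbg1 is a further acyl-CoA synthetase. All 3 were called higher in Treg KO than in Tconv KO, and Acot7 was also called in WT. Acot7 averaged 4548 ± 832 (SD, n = 4) in Treg KO and 1389 ± 357 (n = 5) in Tconv KO, a log2 difference of 1.73 ± 0.22 (SE, adjusted p = 4.71e-05). In WT it averaged 3803 and 1883, a log2 difference of 0.97 ± 0.25 (adjusted p = 0.0329). The WT call was lost in 7 of 26 alternatives. Those were the fits without the library labelled Treg WT 3 (adjusted p = 0.17), Treg WT 1 (0.127), Tconv WT 2 (0.0956), Tconv WT 3 (0.0549) or Tconv WT 4 (0.0762), with only the groups compared (0.138) and with voom (0.0745). Acot9 and Acsbg1 had log2 differences of 1.23 and 1.41 in KO (adjusted p = 0.00151 and 0.00200), and of 0.86 each in WT (adjusted p = 0.0674 and 0.132). Treg KO libraries read 1698 to 1894 for Acsbg1, and Tconv KO libraries 445 to 1171. Of the 11 tested genes of activation and thioesterases, 3 were called higher in KO, beside 4.16% of all genes. Their median log2 difference was 0.72, beside 0.04 over all genes. This is 1 of 7 groups of the list, and with 11 genes the 3 calls are not read as a share above that background.

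Of 16 genes of mitochondrial beta-oxidation, 2 were called higher in Treg KO than in Tconv KO, where 4.16% of all genes were. These 2 were Etfb, a subunit of the electron transfer flavoprotein, and Acaa2, the last thiolase of the cycle. Etfb averaged 1612 and 784, with a log2 difference of 1.02 (adjusted p = 0.0181). Acaa2 averaged 884 and 446, with a log2 difference of 1.01 and an adjusted p of 0.0496 that lay over 0.05 in 16 of 26 alternatives. Etfb was called in 24 of 26, and not without Treg KO 1 (adjusted p = 0.0634) or Treg KO 3 (0.0795). In all, 14 of the 16 had a positive difference, as had 52.3% of all genes, and the median was 0.27. Uptake, binding, carnitine shuttle and peroxisomal genes had no call in either comparison, among 13, 7, 7 and 10 tested.

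**Figure D5:**
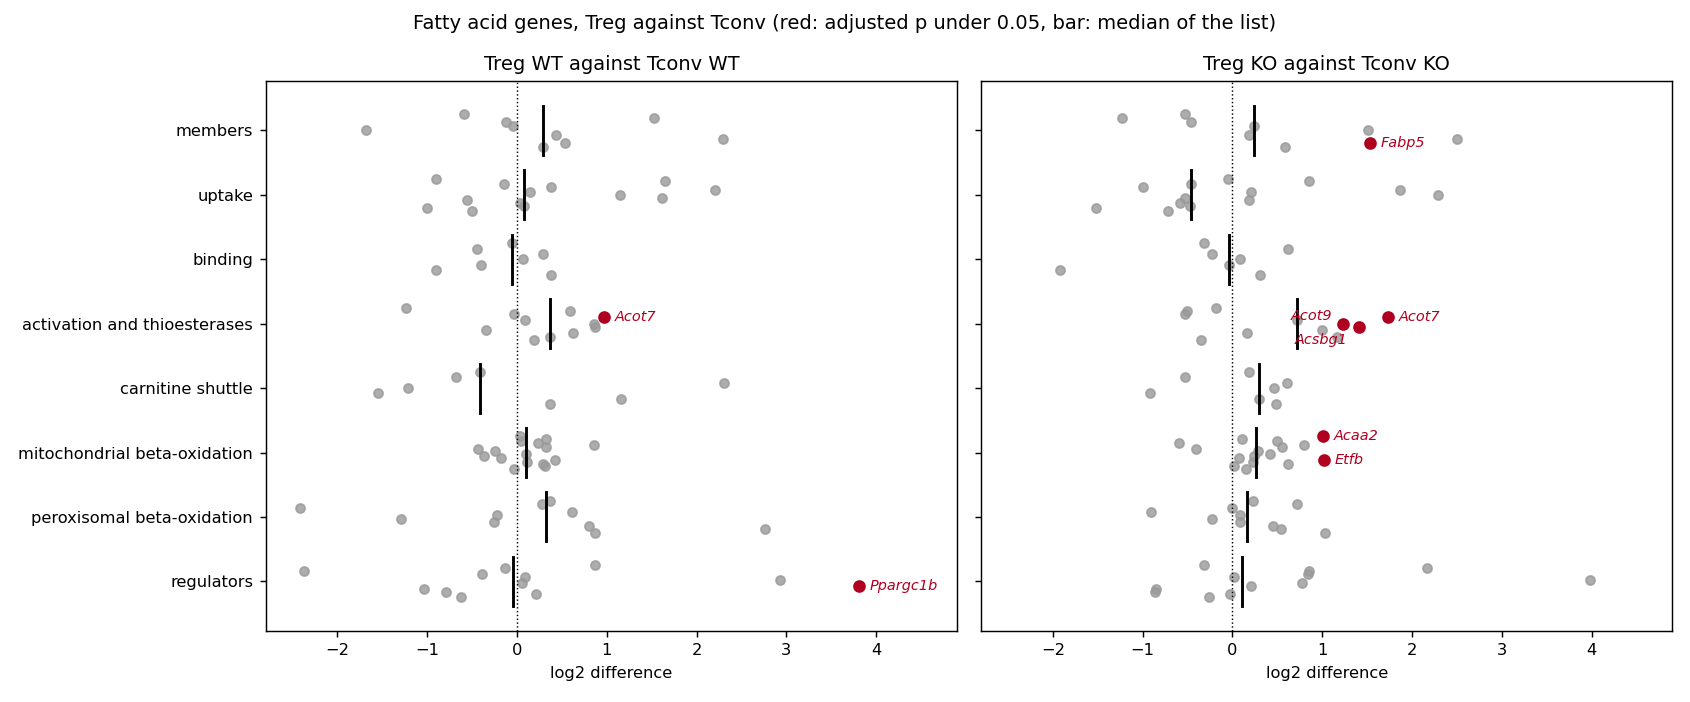
Log2 difference (x axis) of Treg against Tconv in WT (left) and KO (right) for the 9 genes (top row) and the 7 groups of the wider list (rows); each point is a gene, the bar is the median of the row and red marks an adjusted p under 0.05. Calls sit to the right of 0 in both panels, with 3 of 11 in the activation and thioesterase row in KO, where 4.16% of all genes were called higher.

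Ppargc1b, a coactivator of mitochondrial genes, was the other call in WT, among 12 regulators. It read 101.4, 129 and 104 in Treg WT and 4.10, 55.8, 6.03 and 1 in Tconv WT, with no overlap, a log2 difference of 3.81 ± 0.90 (SE) and an adjusted p of 0.0186. The call was lost in 6 of 26 alternatives: when the library labelled Treg WT 3 (adjusted p = 0.0629), Treg WT 2 (0.0505), Tconv WT 4 (0.0545) or the 3 Tconv libraries that stood apart (0.104) were left out, and in 2 other fits. These were the fit with only the groups compared (0.206) and the replicate block by genotype and number (0.0929). In KO animals Treg read 28.7, 144, 59.1 and 152 and Tconv 137, 47.8, 49.0, 63.2 and 70.3, which overlapped (log2 difference 0.20, adjusted p = 0.942). Tconv KO against Tconv WT gave 3.11 with an adjusted p of 0.656, and the difference of the deletion effects was −3.60 with an adjusted p of 0.928.

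In the comparisons without a call, the genes of the list with the smallest p were these. Acot13, a thioesterase, and Acaca, which makes malonyl-CoA, had log2 differences of −1.08 and −1.38 in Treg KO against Treg WT (adjusted p = 0.741 and 0.749). Acaca read 243, 318 and 267 in Treg WT and 32.3, 218, 162 and 104 in Treg KO, without overlap, as for 2.66% of all genes in that direction. Abcd4 followed Ppargc1b in Tconv KO against Tconv WT at 1.32 (adjusted p = 0.858). Abcd3, a peroxisomal membrane transporter, had the other smallest p for the difference of effects, at 2.42 (adjusted p = 0.928).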

How the data were processed

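RNA-seq of 16 libraries was used, from 4 groups set by the sample titles. The deposited values are a normalised signal per gene: counts scaled by 1 factor for each library with 1 added, which the steps between low values show (100% of low values fell within 0.1 of a whole read, at a largest distance of 0.00477). Per the labels' protocols, SMART-seq2 libraries were made from 10 ng of RNA, sequenced on a NextSeq 500 and demultiplexed with bcl2fastq2 2.20. Without giving roles, the submitters' processing notes list DESeq2, R 3.3.1, Partek 6.6, kallisto 0.44, CASAVA 1.8 and the mm10 build. Sorting markers and the counting annotation were not given in the sources used here.

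Values were taken as log2(deposited value + 1), so folds of low genes are understated, and a gene was kept if 3 libraries or more reached 10. A single limma 3.58.1 model (R 4.3.3, mean-variance trend) held all 4 groups, which share an estimate of the spread. It gave 2-sided p-values for 5 comparisons, adjusted by Benjamini-Hochberg over 14319 genes, with 0.05 as the threshold. The code was tested on simulated data. Floors are the value of 3 reads and reflect only the error of counting, because no molecular identifiers were used and reads can be copies of 1 molecule.

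The members and lists were chosen with earlier results of these data known. Named were all 9 members, Hpgd and Foxp3, and list genes past the test (the 2 with the smallest p where none passed). The highest marker of the macrophage, adipocyte and endothelial lists and the 3 genes nearest to a called member were named too. Other marker genes (Adipoq, Csf1r, Cd68, Il5, Il1rl1, Pparg) were chosen after their values were seen. Alternatives were the pseudocount, the filter, quantile scaling, the groups in the fit, voom on recovered reads, a replicate block and leaving out libraries. Positions and exon lengths are from GENCODE M21 (GRCm38, the build of mm10), and upstream windows from RefSeq (GRCm38.p6), matched by symbol for 6 of 9 members; those of Fabp4, Fabp5 and Lpl were not used here.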

Additional observations from a re-analysis of the deposited data

Results flagged for a closer look

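In 26 groups of 4 or 5 libraries with a spread, 1 library stood apart from the others by its gap to the nearest value in 6. The cut-offs (Dixon) are set for about 1 in 20 groups of normally distributed values. The values here were not log transformed, and some groups lay mostly at 1. That rate therefore does not apply, and 6 is not read as an excess. For Cd36, Tconv KO 4 read 16.2, against 1 to 3.43 in the other Tconv KO libraries. Fabp4 read 122.8 in Treg KO 3, against 5.61 to 12.7 in the other Treg KO libraries, and 13.55 in Tconv KO 3, the deepest library, against 1 to 2.22. Fabp5 read 113.7 in Tconv WT 3, against 230.4 to 251. Lpl read 91.49 in Treg KO 4, against 138 to 147. Acsl4 read 780.4 in Tconv KO 3, against 223 to 298.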

How the results depend on the processing

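No member passed the test under any alternative in the 4 comparisons other than Treg KO against Tconv KO, and Fabp5 was the only one called there. Leaving out 1 library at a time gave 0 to 1 members called there (0 without Treg KO 4), 1 to 3 genes of the fatty acid list in Treg WT against Tconv WT and 3 to 7 in Treg KO against Tconv KO. Over all genes the same gave 0 to 17 calls in Treg KO against Treg WT (17 without Treg WT 1), 0 to 2 for the difference of the deletion effects and 338 to 664 in Treg WT against Tconv WT (338 without the library labelled Treg WT 3). With only the groups compared in the fit, Treg KO against Treg WT gave 0 calls over all genes in place of 3, and Treg WT against Tconv WT gave 161 in place of 599. The fatty acid list then gave 0 and 9 calls in place of 2 and 5 in the WT and KO cell type comparisons. With voom on recovered reads, a setting chosen after seeing the data, the counts were 0 in Treg KO against Treg WT, 288 in Treg WT against Tconv WT and 1 of the fatty acid list there. A filter at 50 gave 1 call over all genes in Treg KO against Treg WT.

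The labels do not say whether replicate numbers in the titles pair the libraries, and the main fit took them as unpaired. Deviations of same-numbered libraries correlated weakly, at −0.0370 to 0.0787 over 21 pairs. The 7 pairs of the same number and genotype were all positive, at 0.0227 to 0.0787 (median 0.0528). Pairs of other numbers had a median of −0.00649. Of 14 libraries, 12 correlated best with their own number, so a pairing was not excluded. With the replicate block, the count over all genes in Treg KO against Treg WT was 0 in place of 3, the fatty acid list gave 3 and 4 calls in the WT and KO cell type comparisons, and the members gave 0, 0, 0, 0 and 1. Signs turned under the block for Acsl1 in Treg KO against Treg WT (0.018) and Acsl5 in Treg WT against Tconv WT (0.012).

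Signs turned only for differences that did not pass. With quantile scaling, Cpt1a in Tconv KO against Tconv WT was 0.019 and the difference of effects for Fabp4 −0.35. With voom, Acsl1, Acsl4 and Cpt1a in Tconv KO against Tconv WT were 0.19, 0.19 and 0.076, and the difference of effects was −0.13 for Lpl and −0.41 for Acsl1. Without the 3 Tconv libraries high in Il5, Tconv KO against Tconv WT gave 0.26 for Cd36, −0.63 for Lpl and 0.043 for Acsl5. The difference of effects for Cpt1a was then 0.024, and Treg WT against Tconv WT gave −0.37 for Lpl, 0.21 for Acsl4 and 0.014 for Acsl5.

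Leaving out 1 library at a time turned signs within these ranges. In Treg KO against Treg WT, Acsl1 ran from −0.35 to 0.20, Fabp4 from −0.23 to 1.81, Acsl3 from −2.66 to 0.0090 and Acsl5 from −0.14 to 0.35. In Tconv KO against Tconv WT, Acsl1 ran from −0.46 to 0.10, Lpl from −0.057 to 0.48, Acsl4 from −0.44 to 0.20 and Cpt1a from −0.13 to 0.085. The difference of effects ran from −0.14 to 0.86 for Lpl, −0.94 to 1.10 for Fabp4 and −0.19 to 0.37 for Acsl1. Treg WT against Tconv WT ran from −0.27 to 0.73 for Lpl, −0.40 to 0.18 for Acsl4 and −0.28 to 0.21 for Acsl5, and Treg KO against Tconv KO from −0.047 to 0.31 for Cpt1a. The cause was not tested. A count test with edgeR or DESeq2 and voom with TMM scaling were not run, since the deposited values carry an added 1. Values of Cd36, Fabp4 and Acsl3 at or under the floor of 3 reads cannot be told from 0, and Tconv KO 3, the deepest library, had no Cd36 reads.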
